A study of Mus musculus with 9 samples.

Results

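The S100 genes encode small calcium-binding proteins, and 10 of them (S100a1, S100a4, S100a5, S100a6, S100a8, S100a9, S100a10, S100a11, S100a16 and S100b) were followed here in sorted cells of the mouse olfactory epithelium. They were taken by symbol, as neuronal, epithelial and leukocyte members of the family, and all 10 were found among the 21909 gene symbols of the deposited tables. Another 7 S100 genes in the tables are described after them. The poly-A RNA came from mice aged 4 weeks, from 3 sorted populations of their main olfactory epithelium with 1 library each. Horizontal basal cells (HBC), a reserve stem cell layer, were the cells stained by a PE-coupled antibody to CD54, the product of Icam1. Cells carrying the Neurog1-EGFP reporter (GBC, globose basal cells and neuronal precursors) and cells carrying OMP-ires-EGFP (mOSN, mature olfactory sensory neurons) were sorted by their fluorescence. The strain, the number of mice and any pooling of mice were not given in the sources used here. ScriptSeq was used for the HBC library and Illumina's mRNA kit for those of GBC and mOSN, so that kit and population cannot be told apart in any comparison with HBC. The 3 samples of 5hmC and 3 of 5mC in the series were not analysed here.

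S100 proteins have paired EF-hand loops, and most of them open a binding surface for a target protein when calcium is bound. They work mainly as dimers inside the cell, on the cytoskeleton, on membranes and on calcium channels and pumps, and some are also released and bind cell-surface receptors. In epithelia several members accompany keratin-rich and basal cells, S100a8 and S100a9 are abundant in neutrophils, S100b is best known from glia, and S100a5 is known in the olfactory system as a gene of sensory neurons.

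Levels are FPKM, a fragment count divided by transcript length and by the mapped fragments of the library. They can be compared between genes as far as that conversion holds. Each value carries the interval the authors' software gave it, which covers counting error only. The number of fragments implied by that interval is called implied fragments below, and its sum over all genes was 18123443 for HBC, 18087564 for GBC and 16516700 for mOSN. Each sort gene (Icam1, Neurog1 and Omp) was highest in the library sorted by it, and Omp also had 427 FPKM in GBC and 71.6 in HBC, beside 1487 in mOSN. Cells other than basal cells were also visible in HBC. Of 16 horizontal basal cell markers, 16 reached 5 FPKM there, with a summed level of 1907 FPKM (19.7 in GBC and 37.7 in mOSN). Of 23 macrophage and monocyte markers, 23 did so, with a sum of 5584 FPKM (10.4 in GBC and 12.6 in mOSN, with Ms4a7 listed at 0 in both, Cd163 in GBC and Aif1 in mOSN). In bulk RNA, fewer cells of a type and less RNA per cell cannot be told apart.

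S100a5 was by far the highest S100 gene of both neuronal libraries, and the other 9 members were highest in HBC. Of the 10 genes, 9 had their highest FPKM in HBC and 1, S100a5, in mOSN. Among all 10340 genes that reached 5 FPKM in any library, 27% were highest in HBC and 46.3% in mOSN. The summed level of the 10 genes was 577 FPKM in HBC, beside 203 in GBC and 2941 in mOSN, and without S100a5 it was 564, 17.3 and 23.3 FPKM. S100a5 thus made up 2.17% (HBC), 91.4% (GBC) and 99.2% (mOSN) of the summed level of these 10 members. In HBC 9 of the 10 genes reached 5 FPKM, in GBC 1 and in mOSN 3.

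**Figure D1:**
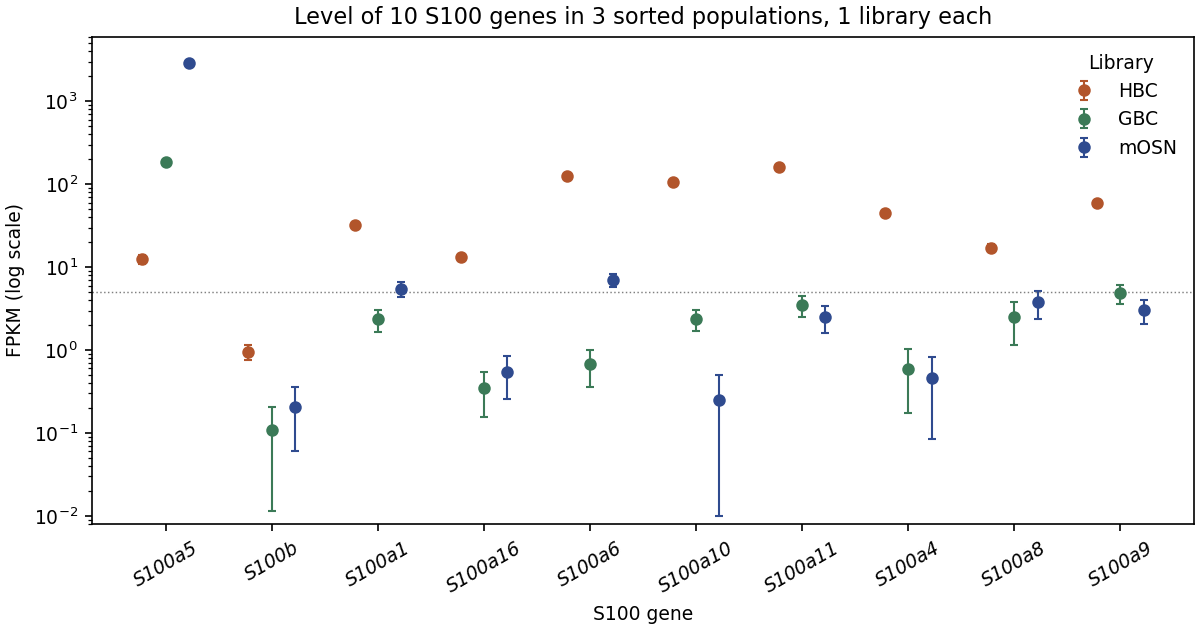
Points give the FPKM of each S100 gene (log axis) in the HBC, GBC and mOSN libraries, 1 library each, and bars give the deposited interval, drawn from 0.01 where its lower bound is 0. The dotted line marks 5 FPKM. S100a5 climbs from 12.5 FPKM in HBC to 2918 in mOSN, while the HBC points of the other 9 genes lie above both neuronal points.

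The order of the members differed between the libraries. In HBC, S100a11, S100a6, S100a10, S100a9, S100a4, S100a1 and S100a8 followed each other with intervals that did not overlap, then came S100a16 and S100a5, which overlapped, and S100b was last. In GBC S100a5 stood above all others, S100a9, S100a11, S100a8, S100a10 and S100a1 came next with overlapping neighbours, and S100a6, S100a4, S100a16 and S100b formed a low group whose neighbours also overlapped. In mOSN S100a5 was followed by S100a6, S100a1, S100a8, S100a9 and S100a11 and then by S100a16, S100a4, S100a10 and S100b, with overlaps between neighbours inside each of these groups.

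S100a5 encodes a calcium-binding protein with a narrow range of tissues, and in olfactory neurons its expression is known to follow their activity. It had 12.5 FPKM in HBC (interval 10.9 to 14.1, 236 implied fragments), 185 FPKM in GBC (177 to 194, 1911 implied fragments) and 2918 FPKM in mOSN (2884 to 2952, 29771 implied fragments). The 3 intervals lay far apart, and no gene in mOSN had a higher FPKM. Its place by FPKM among all symbols was 2746 in HBC, 87 in GBC and 1 in mOSN. Differences between libraries are given as log2 ratios of FPKM after 1 FPKM is added to each value, which understates the change of low genes. On that scale S100a5 was higher in mOSN than in GBC by 3.97, with 3.89 to 4.05 as the range that the ends of the deposited intervals allow. GBC stood above HBC by 3.78 (3.55 to 4.03). In FPKM these steps were 15.7-fold and 14.8-fold. Their sizes depended on the scaling, on the log2 scale from 3.60 (equal library sums) to 4.47 for mOSN against GBC and down to 3.16 for GBC against HBC. The values 4.47 and 3.16 came when a single factor turned implied fragments into FPKM in every library.

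S100a5 can be set beside 14 other markers of mature sensory neurons, such as the odorant G protein gene Gnal, the cyclase gene Adcy3 and Omp. Its level in HBC was 0.429% of its level in mOSN. For the 14 markers this share ran from 0.684% (Rtp2, a chaperone of odorant receptors) to 4.82% (Omp), with a median of 1.37%. S100a5 therefore had the smallest share in HBC, below all 14. In GBC its share was 6.35%, where the 14 markers ran from 5.35% (Umodl1) to 32.5% (Rtp2), with a median of 11.3%, and 3 of them lay below S100a5. That place depended on the conversion to FPKM. Implied fragments in GBC and mOSN were 1911 and 29771 for S100a5. For the 3 markers they were 5383 and 73988 (Umodl1), 6093 and 67721 (Adcy3) and 2099 and 21015 (Cngb1). The ratio of S100a5 to Omp in FPKM was 0.175 in HBC, 0.434 in GBC and 1.96 in mOSN, so the order of these 2 neuronal genes was reversed between mOSN and the other libraries. Implied fragments per FPKM, in the same order of libraries, were 18.9, 10.3 and 10.2 for S100a5 but 56.9, 91.5 and 57.3 for Omp. The rise of the ratio from HBC to GBC depended on that conversion, with 236 and 4075 implied fragments in HBC and 1911 and 39097 in GBC. S100a5 and Gnal stayed closer together, at ratios of 1.27, 1.18 and 2.56.

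Most of the family lies in a row on chromosome 3, and S100a5 differed there from the genes on either side. In the mm9 coordinates of the tables, 12 S100 genes from S100a1 to S100a9 lie within 185 kb (chromosome 3, 90314956 to 90499613), and S100a11 and S100a10 lie 2825 kb further on (93324418 to 93368567). S100b is on chromosome 10 (75716581 to 75724064). S100a5 (90412444 to 90415702) lies between S100a4 (90407692 to 90409967), 2476 bases before it, and S100a6 (90416816 to 90418336), 1113 bases after it. Both of these neighbours were highest in HBC, although S100a6 was, like S100a5, higher in mOSN than in GBC. Some neighbours elsewhere in the row were alike in being highest in HBC, as S100a1 and S100a13 were, and S100a8 and S100a9. S100a2 and S100a3, on the far side of S100a4, were listed at 0 in HBC. S100a3 was highest in mOSN like S100a5, though low there, at 3.32 FPKM. S100a2 had 0.767 FPKM in mOSN and 0.268 in GBC, on 6 and 2 implied fragments. Its intervals in these 2 libraries overlapped, so its highest library is not resolved. In mOSN S100a5 stood at 2918 FPKM, between S100a4 at 0.459 and S100a6 at 6.99 FPKM. In HBC the order was turned, with S100a4 at 45.3, S100a5 at 12.5 and S100a6 at 126 FPKM. The ratio of S100a6 to S100a5 was 10.04 in HBC, 0.00367 in GBC and 0.0024 in mOSN.

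**Figure D2:**
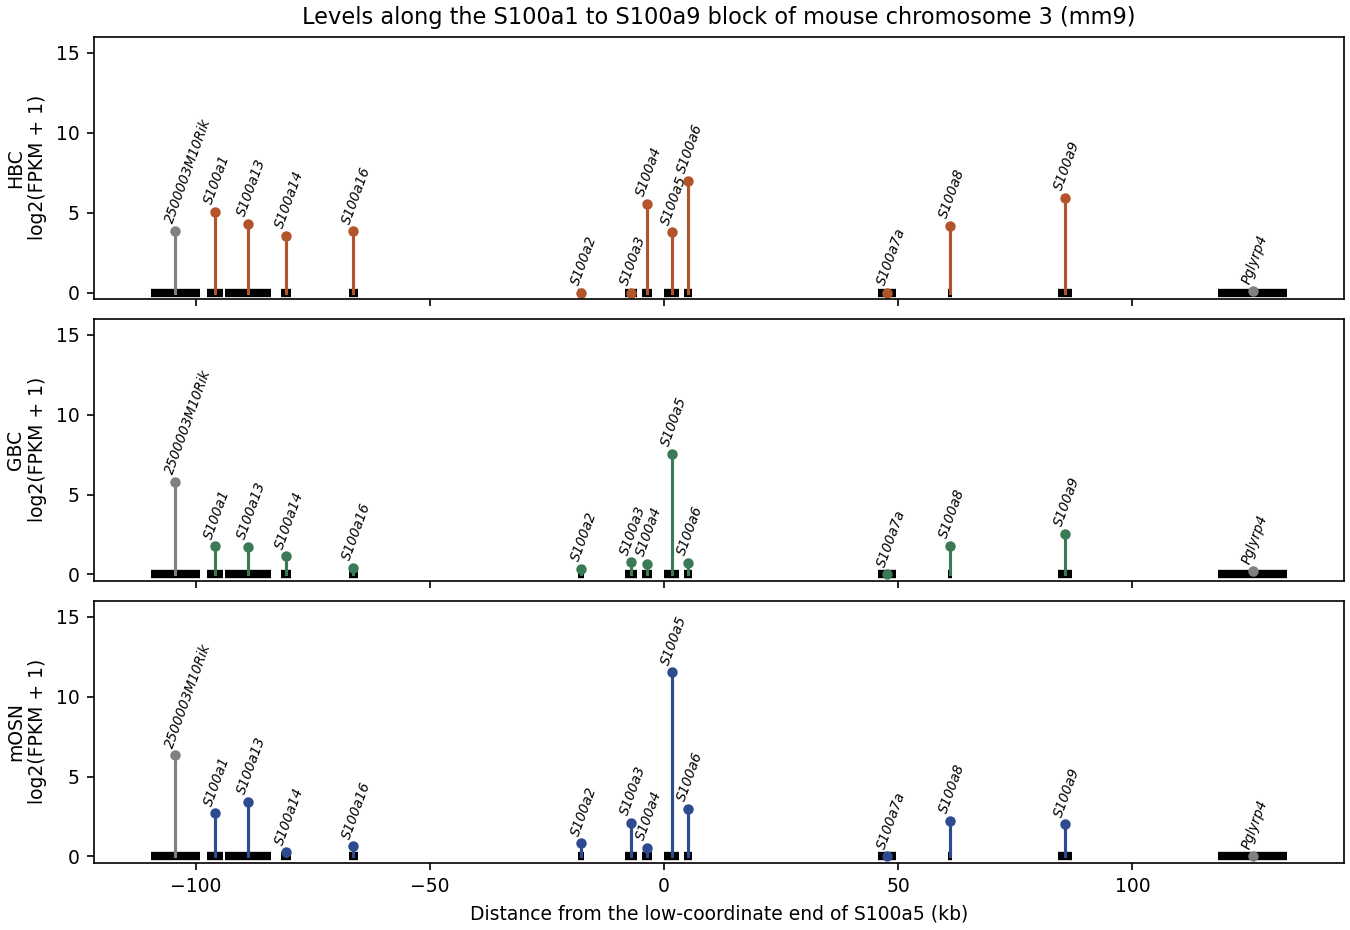
Black blocks mark the genes of the S100a1 to S100a9 row by their distance in kb from the low-coordinate end of S100a5, and stems give log2(FPKM + 1) at the middle of each gene in HBC, GBC and mOSN. Coloured stems are S100 genes and grey stems the flanking genes 2500003M10Rik and Pglyrp4. The S100a5 stem is the tallest of the row in GBC and mOSN, and in HBC it lies below those of S100a4 and S100a6 on either side.

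The bases before the start of S100a5 and of its neighbours are shown because these genes differ in pattern while lying side by side, together with those of S100a11, the member with the highest level in HBC. They are the 250 bases before each start in RefSeq's table for GRCm38.p6, a later build than that of the expression tables, all on the plus strand. The table held 9 of the 10 members, S100a10 being the exception, with 2 starts for S100a16. Capitals mark letters matched by the 4 searched motifs.
S100a4 (chr3:90603520-90603769): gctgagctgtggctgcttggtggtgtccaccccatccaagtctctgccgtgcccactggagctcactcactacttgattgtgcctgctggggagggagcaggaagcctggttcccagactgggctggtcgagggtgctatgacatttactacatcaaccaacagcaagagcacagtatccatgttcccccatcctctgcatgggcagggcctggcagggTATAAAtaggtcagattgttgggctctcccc
S100a5 (chr3:90608272-90608521): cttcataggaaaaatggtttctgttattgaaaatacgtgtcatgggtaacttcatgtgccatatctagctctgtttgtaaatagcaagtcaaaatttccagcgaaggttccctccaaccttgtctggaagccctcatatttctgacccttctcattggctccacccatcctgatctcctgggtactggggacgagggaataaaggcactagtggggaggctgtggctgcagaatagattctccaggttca
S100a6 (chr3:90612644-90612893): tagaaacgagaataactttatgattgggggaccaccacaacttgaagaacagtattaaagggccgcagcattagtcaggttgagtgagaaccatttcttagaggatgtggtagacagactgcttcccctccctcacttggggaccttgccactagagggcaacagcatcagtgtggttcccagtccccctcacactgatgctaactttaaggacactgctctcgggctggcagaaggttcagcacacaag
S100a11 (chr3:93520246-93520495): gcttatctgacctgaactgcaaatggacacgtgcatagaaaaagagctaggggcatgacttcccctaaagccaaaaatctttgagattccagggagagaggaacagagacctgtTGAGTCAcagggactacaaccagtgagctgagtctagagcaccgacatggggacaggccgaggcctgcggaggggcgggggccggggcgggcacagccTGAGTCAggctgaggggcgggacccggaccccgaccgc

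The motifs, searched on both strands and not overlapping each other at these starts, were CCCNNGGG (letters bound by Ebf factors), TAATTA (homeodomain factors), TGANTCA (AP-1) and TATAAA (the TATA box). The windows of S100a5 and S100a6 held none of them, which says only that these letters are not in these 250 bases. S100a4 and S100a8 held TATAAA, at 31 to 26 and 30 to 25 bases before the start. S100a11 held TGAGTCA at 136 to 130 and again at 38 to 32 bases before the start. S100a16 had TGAATCA before 1 of its 2 starts and CCCCAGGG before the other, and S100b had CCCCAGGG. Over all 32851 windows of the same length, CCCNNGGG was in 11.8%, TAATTA in 4.84%, TGANTCA in 6.75% and TATAAA in 12.4%. With so few members these counts are a description of the letters and no more.

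S100b, S100a1 and S100a16 were not higher in the neuronal libraries than in HBC. S100b, a protein of glia and of some neurons, stood at 0.961 FPKM in HBC (interval 0.759 to 1.16), 0.109 in GBC (0.0115 to 0.207) and 0.208 in mOSN (0.0609 to 0.355). It rested on 90, 5 and 8 implied fragments, and its GBC and mOSN intervals overlapped. The glial genes Sox10 and Foxd3 were also low, with Sox10 at 0.559 FPKM in HBC, then 0.0376 in GBC and 0.0447 in mOSN and with Foxd3 below 1 FPKM in each. The whole list of 14 ensheathing and Schwann glia markers summed to 53.1 FPKM in HBC against 19.1 in GBC and 10.8 in mOSN, with 4, 1 and 1 genes at 5 FPKM or more. In HBC these were Pmp22 (15.5 FPKM), Ngfr (11.6), Mbp (9.22) and Erbb3 (5.91). In the neuronal libraries it was Mbp, at 13.7 FPKM in GBC and 6.42 in mOSN. Cdh19 was listed at 0 in GBC and Gfap at 0 in mOSN.

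S100a1, known from heart muscle and neurons as a partner of calcium release channels and pumps, had 32.4 FPKM in HBC (interval 30.2 to 34.6), 2.38 in GBC (1.68 to 3.08) and 5.50 in mOSN (4.32 to 6.68). HBC was the high library, and the GBC and mOSN intervals did not overlap, with mOSN above GBC by a log2 ratio of 0.95 (0.38 to 1.52). S100a13, which was also higher in mOSN than in GBC, lies 429 bases from S100a1, and whether its fragments entered the S100a1 values was not tested. Neither S100a1 nor S100b, taken as neuronal members, was thus highest in a neuronal library. Kit and population cannot be told apart in that comparison with HBC. S100a16, a widely expressed member, had 13.2 FPKM in HBC (11.9 to 14.5), 0.353 in GBC (0.157 to 0.548) and 0.550 in mOSN (0.256 to 0.844), and the values of GBC and mOSN were not separable by their intervals.

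S100a6, S100a10 and S100a11, members common in epithelial cells, were the 3 most abundant S100 genes of HBC. Some markers of other epithelial cells were high in the same library. The 12 sustentacular cell markers summed to 2002 FPKM in HBC, with 70.2 in GBC and 259.7 in mOSN, and none was at 0. Cbr2 (881 FPKM) and Cyp2f2 (748 FPKM) were the highest of them in HBC. The list was not higher in HBC as a whole. Of 9 that reached 5 FPKM in mOSN or HBC, 4 were called lower in mOSN and 0 higher, with a median log2 ratio of 0.38. Cyp2g1 had 11.1 FPKM in HBC and 46.1 in mOSN. Between mOSN and GBC, 3 of the 9 that reached 5 FPKM were called higher in mOSN. The 6 Bowman gland markers found summed to 121 FPKM in HBC but 11.2 in GBC and 15.5 in mOSN, where Lcn11 was listed at 0. The part of these cells in the S100 levels was not tested. S100a6 (calcyclin), which binds annexins and the calcyclin-binding protein, had 126 FPKM in HBC (interval 121 to 130.4), 0.680 in GBC (0.359 to 1.0) and 6.99 in mOSN (5.78 to 8.21). It was the only member besides S100a5 at least 4-fold higher in mOSN than in GBC, by a log2 ratio of 2.25 (1.76 to 2.76) that rested on 133 and 18 implied fragments. Its level in mOSN was 0.24% of that of S100a5, whose 29771 implied fragments lay 1113 bases away. The strand setting and gene models used in counting are not known here, so the S100a6 value in mOSN and its call are uncertain to that extent, and whether S100a5 fragments entered it was not tested.

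S100a10 does not bind calcium and forms a tight complex with annexin A2 at the plasma membrane. It had 107 FPKM in HBC (interval 102 to 111), 2.38 in GBC (1.69 to 3.07) and 0.252 in mOSN (0 to 0.503). Its 3 intervals did not overlap, and it was the member with the lowest log2 ratio of mOSN to HBC, at -6.43 (-6.80 to -6.10), although only 4 implied fragments stood behind its mOSN value. S100a11, a partner of annexin A1, had 163 FPKM in HBC (157 to 169), 3.49 in GBC (2.48 to 4.50) and 2.52 in mOSN (1.62 to 3.43). GBC and mOSN overlapped for S100a11, so only HBC stood apart.

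The leukocyte members S100a4, S100a8 and S100a9 were also highest in HBC, and markers of several leukocyte types were high in the same library. S100a4, which binds nonmuscle myosin and is common in macrophages, fibroblasts and motile cells, had 45.3 FPKM in HBC (interval 42.3 to 48.3), 0.598 in GBC (0.175 to 1.02) and 0.459 in mOSN (0.0843 to 0.834). The neuronal values rested on 8 and 6 implied fragments and were not separable. S100a8 and S100a9 form calprotectin, which binds zinc and manganese and is a main cytosolic protein of neutrophils. S100a8 had 17.1 FPKM in HBC (15.2 to 19.0), 2.48 in GBC (1.15 to 3.81) and 3.75 in mOSN (2.36 to 5.14). S100a9 had 60.2 FPKM in HBC (56.8 to 63.5), 4.88 in GBC (3.62 to 6.14) and 3.05 in mOSN (2.05 to 4.05). Both genes were detected in all 3 libraries, and the GBC and mOSN intervals overlapped for each. S100a9 stood at 3.51 times S100a8 in HBC, 1.97 times in GBC and 0.814 times in mOSN. In GBC and in mOSN the intervals of S100a8 and S100a9 overlapped, so their order there is not resolved. S100a9 and S100a8 rested on 1281 and 320 implied fragments in HBC, 60 and 14 in GBC and 37 and 29 in mOSN. The fall of the ratio from HBC to GBC depended on the conversion to FPKM.

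Of the other neutrophil genes found, at any level, all but Prtn3 and Stfa1 were highest in HBC, as the calprotectin genes were. Of 19 neutrophil markers found, 9 reached 5 FPKM in HBC and none in GBC or mOSN, and their summed level was 164 FPKM in HBC against 13.7 in GBC and 7.76 in mOSN, with Stfa1 listed at 0 in each and Stfa2 in GBC. The granule genes Ngp and Ltf had 26.4 and 26.1 FPKM in HBC, and the receptor gene Il1r2 had 24.4. Prtn3, a protease gene of early granulocytes, went the other way, with 0.925 FPKM in HBC but 4.84 in GBC and 1.42 in mOSN. Lymphocyte markers summed to 107 FPKM in HBC but 2.02 in GBC and 1.03 in mOSN, with Cd8a listed at 0 in both neuronal libraries, Cd3g and Nkg7 in GBC, and Cd3e, Cd3d and Cd4 in mOSN. Fibroblast and smooth muscle markers summed to 151, 11.8 and 10.01 FPKM. Genes of the dissociation response (immediate early and heat shock genes) summed to 5784 FPKM in HBC, with 444 in GBC and 582 in mOSN. The part of these cells and of that response in the HBC levels of any S100 gene was not tested.

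The counts of members in each comparison were read against all genes. To be called, a gene had to differ 4-fold, a log2 ratio of 2 or more in size, and to reach 5 FPKM in the higher library. Between mOSN and GBC, the comparison within 1 kit, 2 of the 10 members were called higher in mOSN (S100a5 and S100a6) and 0 lower, where 7.12% of the 8678 genes reaching 5 FPKM in either library were higher and 3.16% lower, 10.3% in either direction. With 5 FPKM added in place of 1, or with a minimum of 20 FPKM, S100a6 was not called. With each library brought to a sum of 1000000, S100a10 was also called lower in mOSN, at -2.76 beside -1.43 as deposited. All values grew on that scale, so that the added 1 and the minimum of 5 weighed less. With 0.1 FPKM added S100a10 stood at -2.82, and with median-of-ratios scaling at -1.39. As deposited, only 3 members reached 5 FPKM in mOSN or GBC, the third being S100a1. Over the 10 members the median log2 ratio was 0.16, and over the 3 that reached 5 FPKM it was 2.25. Over those 8678 genes, which also reached 5 FPKM, it was 0.29. With 1 library a group none of these counts has a test.

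Between GBC and HBC, 1 member was called higher in GBC (S100a5) and 8 lower, with S100b under 5 FPKM in both. The background was 15.5% of 9101 genes higher and 16.5% lower, 32.0% in either direction. The members' median was -3.39, over all 10 and over the 9 that reached 5 FPKM, and that of the 9101 genes 0.51. The lower members ran from S100a8 at -2.38 to S100a6 at -6.24. Between mOSN and HBC, 1 member was called higher (S100a5, at 7.75) and 7 lower, with S100a8 at -1.93 just short of the threshold, beside 24.0% of 9779 genes higher and 15.8% lower, 39.9% in either direction. With 5 FPKM added, S100a8 and S100a16 were not called between GBC and HBC, nor S100a1 and S100a16 between mOSN and HBC. The medians were -3.56 for the 10 members, -3.92 for the 9 that reached 5 FPKM and 0.79 for the 9779 genes. These 2 comparisons share the HBC library. Median-of-ratios scaling put the median of all genes at -0.20 in the first and -0.15 in the second. With it, the share of all called genes on the higher side was 31.5% in place of 48.4% for GBC against HBC and 40.9% in place of 60.3% for mOSN against HBC, and S100a8 was then also called lower in mOSN. For mOSN against GBC that share was 69.3% as deposited and 45.7% after the sums of the libraries were made equal.

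**Figure D3:**
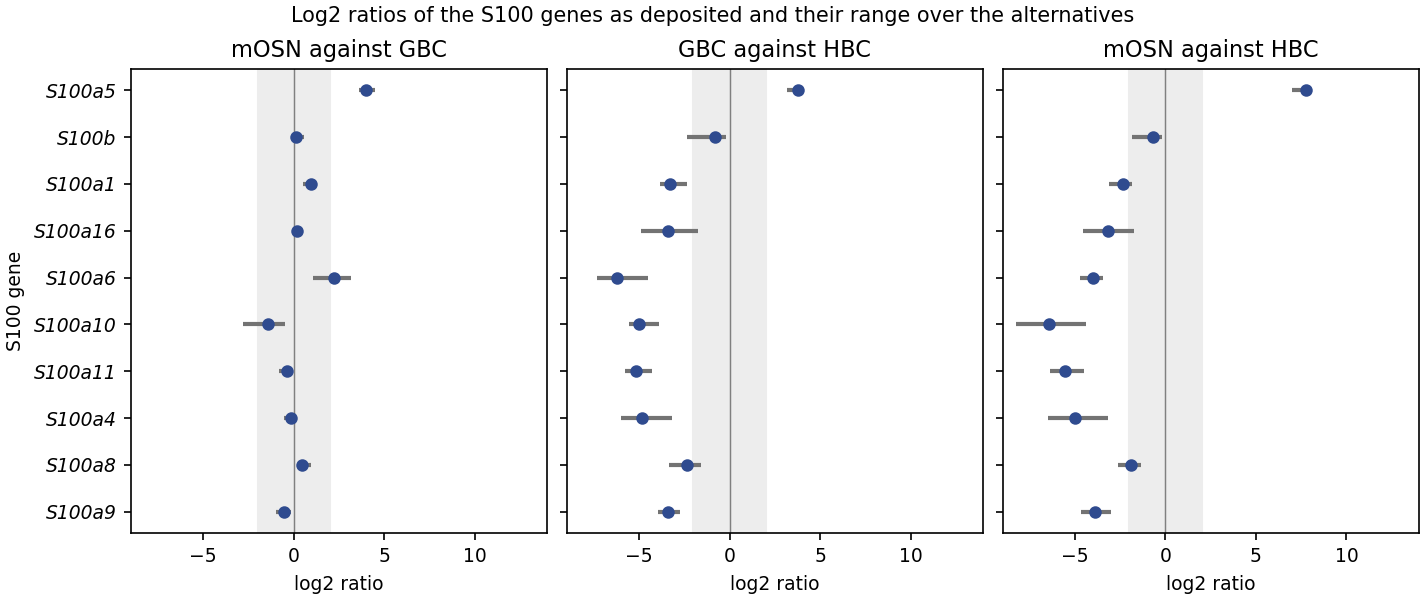
Each panel shows the log2 ratio of the 10 S100 genes in a comparison of 2 libraries, with the point at the value as deposited and the grey line spanning the values under the other pseudocounts, scalings and row choices. The shaded band lies between -2 and 2. S100a5 is right of the band in all 3 panels, and 8 genes lie left of it in GBC against HBC.

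Of 40 genes listed as partners, receptors or related genes of S100 proteins 39 were found. Most of those called in a comparison with HBC were lower in the neuronal library. The lower ones include the inflammatory cytokine gene Il1b, and the part of leukocytes in these calls was not tested. Between GBC and HBC 11 were called lower in GBC and 1 higher (Dlg4) among 27 reaching 5 FPKM, with a median log2 ratio of -1.27 beside 0.51 for all genes, of which 16.5% were lower and 15.5% higher. Between mOSN and HBC 12 were called lower and 2 higher (Cacybp and Dlg4) of 27, with a median of -1.57 beside 0.79, where 15.8% of all genes were lower and 24.0% higher. The mOSN value of Dlg4 was marked FAIL in the deposited table, with interval ends of 0 and 35.2 FPKM, so that its call in that comparison is uncertain. Between mOSN and GBC 1 was called higher (Cd36, a fatty acid receptor that also binds S100 proteins, at 19.7 against 1.02 FPKM) and 1 lower (Vim, an intermediate filament gene, at 6.49 against 204 FPKM) of 19, near the 7.12% and 3.16% of all genes.

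Anxa1 and Anxa2 shared the HBC-high levels of S100a11 and S100a10, and other annexin genes did not all do so. Anxa2, the partner of S100a10, had 84.3 FPKM in HBC but 0.550 in GBC and 1.58 in mOSN, and Ahnak, a giant scaffold that binds their complex, had 65.1, 0.0822 and 0.238 FPKM. The order of the neuronal libraries was opposite for the subunits. S100a10 was higher in GBC than in mOSN while Anxa2 was higher in mOSN, with intervals of 0.338 to 0.761 in GBC and 1.18 to 1.99 in mOSN. The ratio of S100a10 to Anxa2 was 1.26 in HBC, 4.33 in GBC and 0.159 in mOSN. Anxa1, the partner of S100a11, had 51.9 FPKM in HBC but 0.563 in GBC and 1.77 in mOSN. Plaur, the urokinase receptor of the plasminogen system in which S100a10 acts, had 32.6, 0.180 and 0.109 FPKM.

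Among the other annexin genes of the list, Anxa6 was also highest in HBC, at 24.9 FPKM beside 5.33 in GBC and 1.25 in mOSN. Anxa5 was nearly level, at 84.0, 75.0 and 85.3 FPKM in the same order, and Anxa11 was highest in GBC, at 20.6, 25.8 and 7.09 FPKM. Cacybp, which binds S100a6, had 10.1 FPKM in HBC, then 25.2 in GBC and 48.8 in mOSN, the reverse of the order of S100a6 between HBC and mOSN. Myh9, the nonmuscle myosin heavy chain bound by S100a4, had 161 FPKM in HBC against 33.4 in GBC and 31.6 in mOSN, and was called lower in both comparisons with HBC like S100a4, by log2 ratios of -2.24 and -2.31. Of the receptors for released S100 proteins, Ager (the receptor for advanced glycation end products) had 0.534, 0.430 and 0.371 FPKM with overlapping intervals, and Tlr4 had 3.59, 0.0576 and 0.104 FPKM. Il1b, an inflammatory cytokine gene, had 403 FPKM in HBC but 0.615 in GBC and 0.405 in mOSN.

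**Figure D4:**
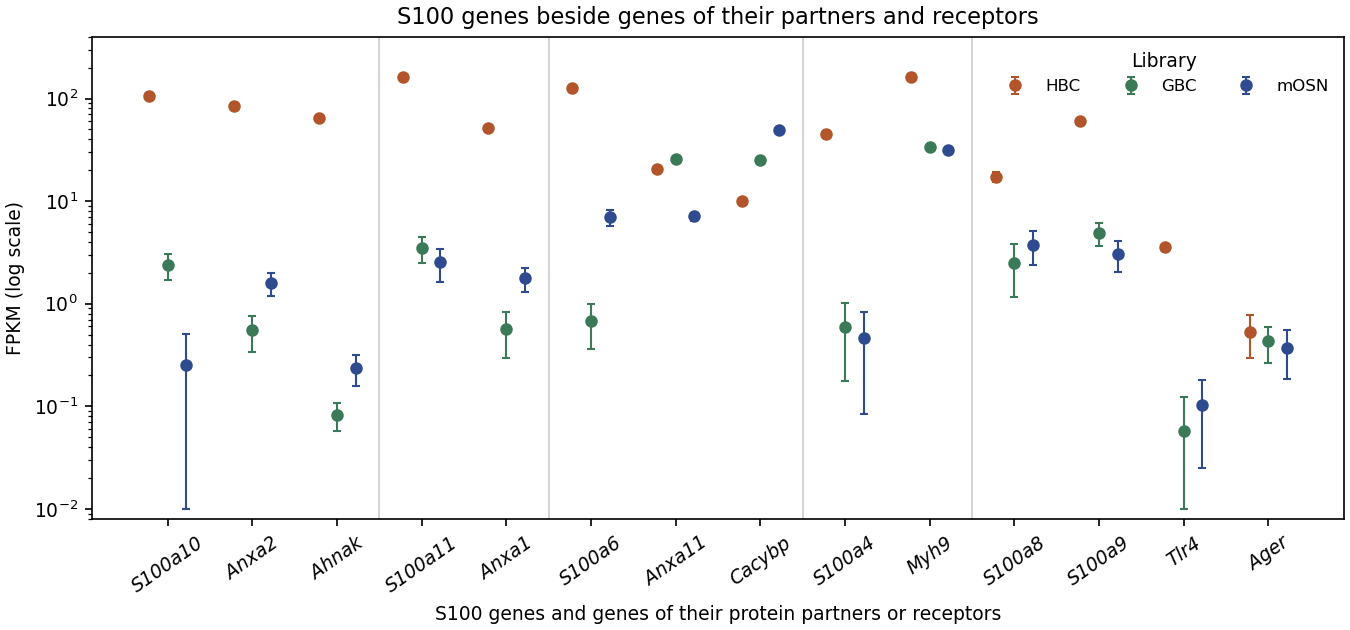
Points give FPKM (log axis) with the deposited interval (drawn from 0.01 where its lower bound is 0) for S100 genes and genes of their protein partners or receptors in the HBC, GBC and mOSN libraries. Vertical lines separate the groups of S100a10, S100a11, S100a6, S100a4 and calprotectin. Anxa2, Ahnak and Anxa1 are highest in HBC like their S100 partners, Cacybp is highest in mOSN, and Ager is below 1 FPKM in each library.

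Of the other 7 S100 genes in the tables, S100z and S100g were highest in GBC. S100z lies on chromosome 13 (96247256 to 96248610) and had 0.249 FPKM in HBC (interval 0 to 0.536, 3 implied fragments), 38.3 in GBC (33.9 to 42.7) and 13.3 in mOSN (10.6 to 15.9). GBC stood above both other libraries for S100z with intervals that did not overlap, the log2 ratio of mOSN to GBC being -1.46. S100a13, known from the export of growth factors, had 18.5 FPKM in HBC, with 2.31 in GBC and 9.71 in mOSN, and S100a14, an epithelial member, had 10.7, 1.19 and 0.200 FPKM. S100a3, beside S100a4, was listed at 0 in HBC and had 0.697 FPKM in GBC (0.359 to 1.03) and 3.32 in mOSN (2.47 to 4.18). S100g, a calcium-binding protein of absorptive epithelia, was listed at 0 in HBC and had 2.95 FPKM in GBC (1.95 to 3.94) and 0.354 in mOSN (0 to 0.708), which did not overlap. S100a2 was below 1 FPKM in each library, and S100a7a was listed at 0 in all 3.

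The genes most alike in pattern were found by the distance of centred log2(FPKM + 1) over the 3 libraries, among 3634 genes of at least 20 FPKM in any library. With only 3 libraries many genes can share a pattern. For S100a5 they were Cartpt (1.45, 37.5 and 367 FPKM in HBC, GBC and mOSN, distance 0.52), Ctxn3 (distance 0.85) and Gnal (distance 0.88). For S100a6 they were the immediate early gene Fosb (701, 9.53 and 67.5 FPKM, distance 0.46), the proteoglycan gene Dcn (distance 0.74) and Nr4a1 (distance 0.75). For S100a8 they were Slc39a1, a zinc transporter gene (20.4, 2.997 and 4.22 FPKM, distance 0.073), Samhd1 (distance 0.090) and Alas1 (distance 0.092).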

How the data were processed

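Poly-A RNA of 3 sorted populations was analysed, with 1 library each, grouped by the sample titles. The authors deposited FPKM per gene with interval bounds and a status, per the file headers. Bowtie, TopHat, Cufflinks and build mm9 are named in the submitters' processing notes, without versions. The annotation, strand setting and options were not given in the sources used here. Rows of 1 symbol were added up (222 symbols, no member), and all members had the status OK. Starts were raised by 1 to count from 1. Implied fragments were the square of 2 times the FPKM over the half-width of the interval. Of rows with up to 100, 77.4% (HBC), 68.8% (GBC) and 68.5% (mOSN) were within 0.03 of a whole number. PCR reads without molecular identifiers are not independent molecules.

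Ratios and calls are as given above, and without replicates no test was run. Alternatives were other pseudocounts (0.1 and 5 FPKM), minimums (none and 20 FPKM), scalings, row choices, and separate intervals with a 2-fold difference. With 1 conversion factor per gene, FPKM were recomputed from implied fragments with a single factor in all libraries. Named genes were the members, the other S100 genes, top markers, chromosomal neighbours and 3 most alike genes. From the list of partners, receptors and related genes came up to 6 of at least 20 FPKM with the widest range. Ager, Tlr4, Anxa1, Anxa2 and Ahnak were named whatever their values. Cacybp, Myh9, Cd36, Dlg4, Anxa5, Anxa6, Anxa11 and Prtn3 were named after their values were seen. Members and lists were chosen with earlier results of these data known. On simulated data of 21909 genes, the call rule found all 200 genes raised 8-fold, for mOSN against GBC with 3 unchanged genes called and with 2 in the other comparisons. The raised genes had at least 5 FPKM before and only counting noise was added, so that finding them was nearly fixed in advance. No gene was lowered and no difference of kit, mice or cell mixture was simulated. The check therefore does not measure false calls between the real libraries. Python 3.11.15 with pandas 2.3.3 was used. Promoter sequences are RefSeq's (GRCm38.p6), and no coordinates were converted.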

Additional observations from a re-analysis of the deposited data

How the results depend on the processing

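None of the 10 S100 genes followed changed direction in a comparison where it was called, under any alternative run. The other 7 S100 genes were not run under them. For mOSN against GBC the 2 called members were 1 (S100a5 alone) with a pseudocount of 5 FPKM and 1 with a minimum of 20 FPKM. They were 3 with each library brought to a sum of 1000000, where S100a10 was called lower at -2.76 beside -1.43 as deposited. The pseudocount and the minimum weighed less on that scale, and S100a10 stood at -2.82 with a pseudocount of 0.1 FPKM. For GBC against HBC the 9 called members ranged from 7 to 10, and for mOSN against HBC the 8 ranged from 6 to 9. The place of S100a5 in GBC moved from 87 to 141 with 1 conversion factor per gene, and in mOSN it remained 1. Of 210 log2 ratios of single members under 7 alternatives, 136 stayed within the range allowed by the deposited intervals, 74 moved beyond it and 1 changed sign (S100a4, mOSN against GBC, from -0.13 to 0.034 with 1 conversion factor per gene). The cause was not tested. Counts of all called genes ran from 261 to 2956 for mOSN against GBC (892 as deposited), from 1147 to 5524 for GBC against HBC (2913) and from 1563 to 6396 for mOSN against HBC (3900). The low ends came with a pseudocount of 5 FPKM, and the high ends with the 2-fold limit or the common sum. No paired analysis was possible because each population has 1 library and the labels give no replicate numbers. Few fragments limit the low members, with 4 to 8 behind S100a10 and S100a4 in mOSN and S100b in both neuronal libraries.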
